A study of Mus musculus with 4 samples.

Results

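The Ifi200 family is a cluster of close paralogs on mouse chromosome 1, and 10 of its genes were taken by their symbols from the 55536 Ensembl genes of the count tables: Ifi202b, Ifi203, Ifi204, Ifi205, Ifi206, Ifi207, Ifi208, Ifi209, Ifi213 and Aim2. The family was picked because of its difference between the states in the fibrillarin pulldown, so the pulldown ratios given here describe the choice and carry no test. The libraries came from primary fibroblasts grown from ear clips of C57BL/6 mice, held for 48 hours in KN93, an inhibitor of CaM kinase II used here to bring the cells to the same cell cycle stage, and then transfected for 24 hours. The labels call the states AF357425-High and AF357425-Low, after a C/D box small nucleolar RNA of the Dlk1-Dio3 locus. They describe the states as overexpression and inhibition in one field and name gapmers against AF357425 or a scrambled control in another, and they do not say which transfection stands behind each state. Each state has 1 library of whole-cell RNA and 1 library of RNA recovered with an antibody against fibrillarin, the methyltransferase of C/D box small nucleolar RNPs. With 1 library in each of the 4 groups no difference has a replicate check, and no test was run. The intervals hold counting error alone, and PCR duplicates without molecular identifiers make it a lower limit.

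Ifi200 proteins, also called PYHIN proteins, are interferon-inducible. Most pair a pyrin domain, through which proteins of cell death and inflammation bind each other, with a HIN domain that binds double-stranded DNA. Aim2 is the cytosolic DNA sensor that builds an inflammasome, and Ifi204 is the mouse relative of human IFI16, a DNA sensor that acts through STING. Ifi202b carries HIN domains without a pyrin domain and restrains Aim2. The family is best known from macrophages and other immune cells, and fibroblasts express part of it.

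Promoter sequences are shown first, because 6 members carry an interferon response motif near their start sites, in windows of closely related sequence. Aim2, Ifi202b and Ifi209 do not hold that motif there. Of these, Ifi209 was higher in the AF357425-High pulldown, Aim2 had few pulldown reads and Ifi202b had none. Whether the motif bears on the pulldown ratios was not tested. The RefSeq promoter table (GRCm38.p6; 250 bases before to 50 after each annotated start) held 9 of the 10 members with 10 starts, and Ifi204 was not among them. The core of the interferon-stimulated response element, searched on both strands as GAAA, any 2 bases and GAAA again, was present in 6 of these 9 members: Ifi203, Ifi205, Ifi206, Ifi207, Ifi208 and Ifi213. In all, 3.44% of the 32851 promoters in the table and 3.99% of the 27025 genes held it. The GAS motif TTCNNNGAA, which reads the same on both strands and does not overlap the first, was present in Ifi202b alone among the members, against 8.3% of all promoters. The windows below run from 10 bases before to 10 bases after the core, 5′ to 3′ on the strand of the gene, with the core in capitals.
Ifi206 at chr1:173491339-173491368, minus strand: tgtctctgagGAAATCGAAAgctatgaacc
Ifi208 at chr1:173673597-173673626, plus strand: cgtctctgagGAAATCGAAAgctatgaacc
Ifi213 at chr1:173599326-173599355, minus strand: cgtctctgagGAAATCGAAAgctatgaacc
Ifi207 at chr1:173741831-173741860, minus strand: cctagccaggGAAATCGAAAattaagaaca
Ifi203 at chr1:173942508-173942537, minus strand: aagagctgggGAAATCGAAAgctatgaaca
Ifi205 at chr1:174031870-174031899, minus strand: ccaggccaggGAAATTGAAAgctatgaaca
Ifi209 at chr1:173630770-173630799, plus strand: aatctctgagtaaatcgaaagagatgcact

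The Ifi209 window has no capitals because it lacks the core, and it is placed on the word AAATCGAAA that it shares with Ifi203, Ifi206, Ifi207, Ifi208 and Ifi213. That word stood in the promoters of 38 of 27025 genes. The core began 40 bases before the start in Ifi206, at -41 in Ifi207, -58 in Ifi208, -73 in Ifi213 and -134 in Ifi205. In Ifi203 it lay at -35 from the second of its annotated starts, and the window of the first start did not hold it. These positions count from the starts in the promoter table. The RefSeq gene spans of Ifi213 and Ifi203, given below, reach further out, and the core of each lies inside its gene span. Ifi205 had a further match on the opposite strand, downstream of its start. Of other PYHIN genes of the cluster, Mndal, Ifi211 and Ifi214 are in the table, and each held the core. The longest word shared by 4 members was GGAAATCGAAAGCTATGAAC. It was found upstream of a start in that table for Ifi203, Ifi206, Ifi208 and Ifi213, and in 5 genes of the whole table. These words were found after the promoters had been read, and a match is a description and not a binding site.

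The upstream regions also show how close some members are. Ifi206 and Ifi208 were identical at 231 of 232 aligned bases upstream of their starts, Ifi208 and Ifi213 at 233 of 235, and Ifi206 and Ifi213 at 214 of 217. The 250 bases upstream of the members with the highest and the next highest pulldown ratio, Ifi206 with the core and Ifi209 without it, are given for the wider context.
Ifi206 at chr1:173491319-173491568, minus strand: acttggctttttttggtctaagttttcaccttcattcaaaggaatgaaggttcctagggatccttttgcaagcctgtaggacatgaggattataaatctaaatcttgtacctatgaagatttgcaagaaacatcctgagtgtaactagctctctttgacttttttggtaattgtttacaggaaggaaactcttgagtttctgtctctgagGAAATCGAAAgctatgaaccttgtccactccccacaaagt
Ifi209 at chr1:173630609-173630858, plus strand: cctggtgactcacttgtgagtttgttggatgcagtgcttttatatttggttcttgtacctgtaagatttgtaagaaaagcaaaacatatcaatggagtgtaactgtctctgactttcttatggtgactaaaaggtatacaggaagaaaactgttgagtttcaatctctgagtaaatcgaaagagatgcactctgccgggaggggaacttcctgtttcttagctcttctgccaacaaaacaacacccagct

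Depth and cell type were checked before the values were read. Gene-assigned reads numbered 22082565 (AF357425-High) and 21693030 (AF357425-Low) for whole cells, and 25857770 and 27832061 for the pulldowns. Mitochondrial ribosomal RNAs made up 63.4% and 59.8% of pulldown reads and under 1% of whole-cell reads. All 8 fibroblast markers had reads in every library and summed to between 2205 and 7168 CPM (counts per 1000000 gene-assigned reads). The 10 macrophage and monocyte markers gave 13.2 and 12.9 CPM for whole cells (AF357425-High first) and 2.44 and 2.16 CPM for the pulldowns, with Adgre1, Tyrobp and Aif1 at 0 reads in all 4 libraries. The 6 dendritic cell markers summed to between 2.09 and 3.05 CPM, with Flt3 and Cd209a at 0 in all 4. The T, NK, B and mast cell markers summed to at most 0.252 CPM per list and library. Lists for other cells of the ear gave 1.78 to 3.85 CPM (keratinocytes), 0.323 to 1.71 CPM (endothelium), 3.29 to 10.6 CPM (melanocytes) and 111 to 262 CPM (chondrocytes), and the chondrocyte sum in AF357425-High was 262 CPM for whole cells against 185 CPM in AF357425-Low. Within the macrophage list the genes did not move together in the pulldown: Cd14 had 28 reads in AF357425-High against 4 (log2 ratio 3.21, 95% interval 1.69 to 5.18), Lyz2 12 against 4 (1.99, 0.26 to 4.07), and Cd68 and Csf1r each 10 against 24 (-0.86, -2.09 to 0.26). Of the chondrocyte genes in whole-cell RNA, Cnmd had 99 reads in AF357425-High against 14 (2.73, 1.92 to 3.65). Col2a1 had 1922 against 766 (1.24, 1.12 to 1.36). Acan had 0.84 (0.07 to 1.66) and Sox9 0.12 (0.05 to 0.19). The intervals of Cnmd and Col2a1 lay wholly above 2-fold, as did those of 0.111% of 13519 genes. In the pulldown Cnmd, Col2a1 and Sox9 had -0.05, 0.01 and 0.00. The part of other cell types in the results was not tested.

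Summed over the 10 genes, the family held 244 reads for AF357425-High and 216 for AF357425-Low whole cells, and 4981 and 997 for their pulldowns. Per library total these are 11 CPM (95% Poisson interval 9.71 to 12.5), 9.96 CPM (8.67 to 11.4), 193 CPM (187 to 198) and 35.8 CPM (33.6 to 38.1). The AF357425-High pulldown was the library apart from the others, and the whole-cell intervals of the states overlapped. The libraries of a comparison were scaled to each other with TMM factors, which leave the bulk of genes level. The log2 ratio of the scaled sums for AF357425-High over AF357425-Low was 2.72 (95% interval 2.62 to 2.82; 6.6-fold) in the pulldown and 0.09 (-0.18 to 0.36) in whole-cell RNA. Without Ifi206 the same ratios were 2.61 (2.51 to 2.71) and 0.06 (-0.21 to 0.33). In such bulk libraries, more cells that carry these RNAs and more RNA per cell cannot be told apart.

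**Figure D1:**
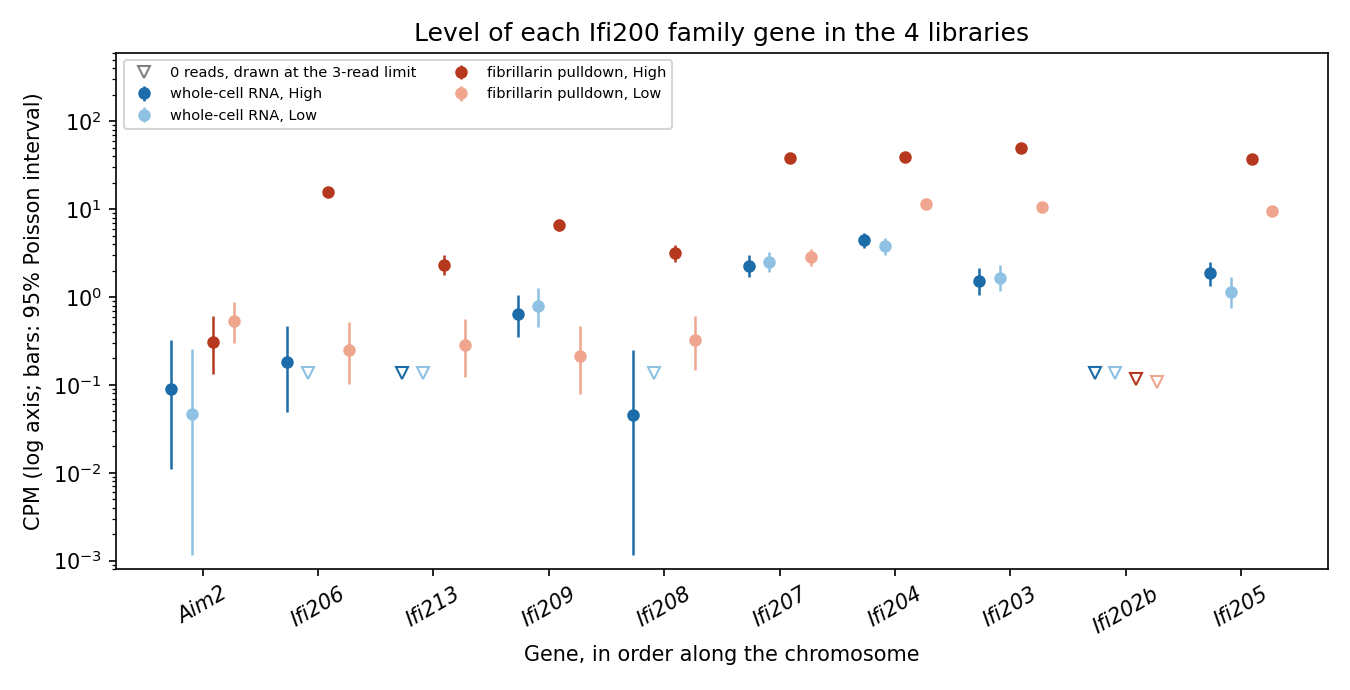
Level of each family gene in CPM (log axis) in the 4 libraries, with 95% Poisson intervals; open triangles mark 0 reads at the 3-read limit. The AF357425-High pulldown is the highest library for 8 of the 10 genes, while Aim2 stays under 1 CPM and Ifi202b has 0 reads in all 4 libraries.

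In the pulldown, the states were compared for RNAs that came down with fibrillarin. A gene counts as higher or lower where its whole 95% interval lies beyond 2-fold, and as measured where the libraries compared average 1 CPM or more. Of the 10 members, 8 were measured and 8 were higher in AF357425-High, against 3.43% higher and 2.9% lower of all 10736 measured genes. Since the family was chosen on this contrast, nothing is read from that count. Ifi206, Ifi208, Ifi209 and Ifi213 reached the minimum through the AF357425-High library alone. The median log2 ratio of the measured members was 3.44, against -0.01 for all measured genes. Reads that align equally well to several places were kept apart in the tables (18.3% and 17.8% of pulldown fragments) and were not assigned to genes. How many of them belong to these paralogs was not tested.

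The 4 members with the fewest whole-cell reads among those that were higher had the widest pulldown intervals. Ifi206 (ENSMUSG00000037849; GRCm38.p6 chromosome 1, 173468485 to 173491318) had 4 and 0 whole-cell reads (AF357425-High first, here and below) and 410 and 7 pulldown reads. Its pulldown log2 ratio of 6.27 (5.22 to 7.60) was the highest of the family. Ifi209 (ENSMUSG00000043263; 173630859 to 173647928), a PYHIN gene also named Pyhin1, had 14 and 17 whole-cell reads and 172 and 6 pulldown reads, a ratio of 5.24 (4.09 to 6.71). The AF357425-High pulldown stood apart for both genes, and the AF357425-Low pulldown had under 10 reads of each. Ifi208 (ENSMUSG00000066677; 173673628 to 173698393), which RefSeq also lists as Pydc3, a pyrin-domain gene, had 1 and 0 whole-cell reads and 81 and 9 pulldown reads, a ratio of 3.57 (2.58 to 4.75). Ifi213 (ENSMUSG00000073491; 173566280 to 173599348), also listed as Pydc4, had 0 and 0 whole-cell reads and 60 and 8 pulldown reads, a ratio of 3.31 (2.24 to 4.58). For Ifi206, Ifi208 and Ifi213 whole-cell RNA was at or near the limit that a count of 0 allows, 3 reads or 0.136 and 0.138 CPM.

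The other 4 were measured in every library and gave narrow intervals. Ifi207 (ENSMUSG00000073490; 173723424 to 173741831), a nuclear PYHIN gene, had 50 and 55 whole-cell reads and 985 and 79 pulldown reads, a ratio of 4.04 (3.71 to 4.39). Ifi203 (ENSMUSG00000039997; 173920400 to 173942866) had 34 and 36 whole-cell reads and 1281 and 293 pulldown reads, a ratio of 2.53 (2.34 to 2.72). Ifi205 (ENSMUSG00000054203; 174011998 to 174031755), a member studied in macrophages for its part in inflammasome gene expression, had 41 and 25 whole-cell reads and 963 and 265 pulldown reads, a ratio of 2.26 (2.07 to 2.46). For all of these the AF357425-High pulldown was the highest library, and the pulldown intervals of the states did not overlap. Ifi204 (ENSMUSG00000073489; 173747293 to 173767069), the IFI16 relative, had 98 and 82 whole-cell reads and 1021 and 315 pulldown reads. Its ratio of 2.10 (1.91 to 2.28) was the lowest of the 8, and with a line at 4-fold it did not pass.

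Aim2 was under the minimum in the pulldown, and Ifi202b had no reads to compare. Aim2 (ENSMUSG00000037860; 173349547 to 173466040) had 2 and 1 whole-cell reads and 8 and 15 pulldown reads, and its pulldown ratio was -0.51 (-1.95 to 0.82). The reads of Aim2 were too few to place it on either side of 0, and its RefSeq span overlaps Cadm3 and a transfer RNA gene. Its interval nevertheless lay wholly below the intervals of the 8 members that were higher. Ifi202b (ENSMUSG00000026535; 173962569 to 173982844) had 0 reads in all 4 libraries, which leaves room for levels of up to 0.138 CPM in whole cells and 0.116 CPM in a pulldown. C57BL/6 mice are known for a very low level of Ifi202b compared with other strains.

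Ordered by their pulldown ratio, the members ran Ifi206, Ifi209, Ifi207, Ifi208, Ifi213, Ifi203, Ifi205, Ifi204 and Aim2. The intervals of neighbours in this order overlapped up to Ifi204, so their order is not settled by the counts, and Ifi204 and Aim2 did not overlap. Members further apart did differ beyond counting error. Ifi207 lay above Ifi203, Ifi205 and Ifi204, and Ifi206 above Ifi207 and every gene below it in the order.

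**Figure D2:**
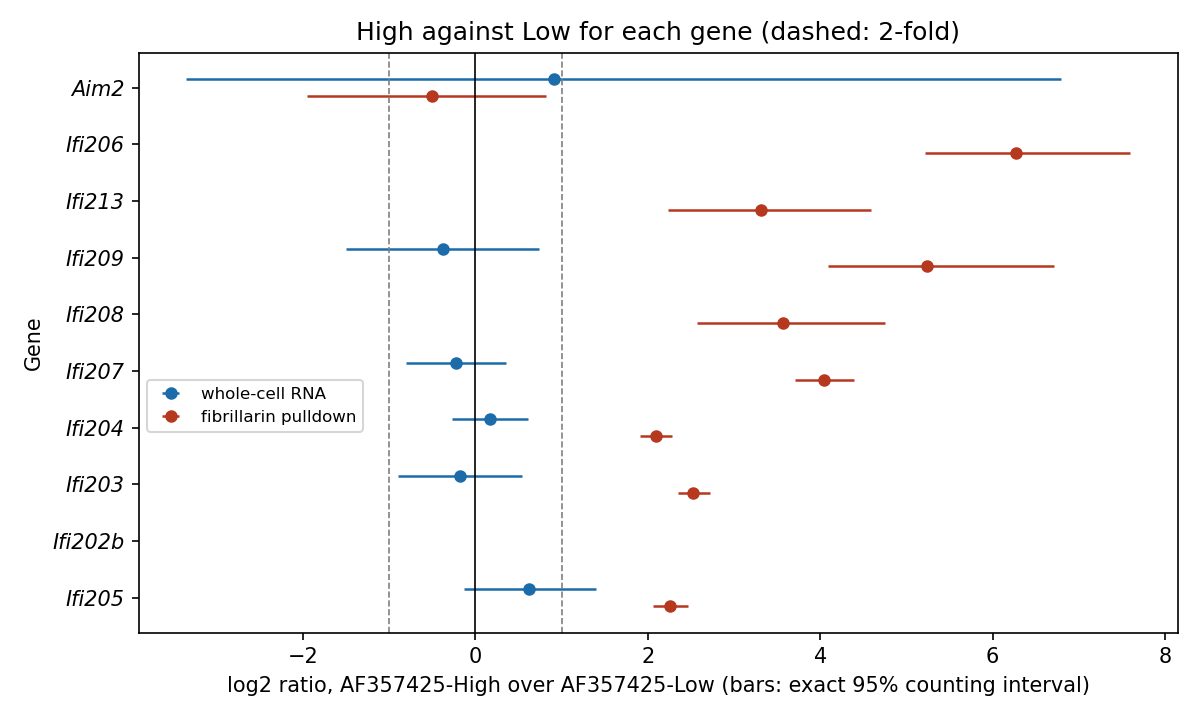
Log2 ratio of AF357425-High over AF357425-Low for each gene, by kind of library, with exact 95% counting intervals and dashed lines at 2-fold; genes with 0 reads in a library have no point. The pulldown intervals of 8 genes lie to the right of the 2-fold line, and all 4 measured whole-cell intervals cross 0.

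The comparison in whole-cell RNA, which the choice of the family did not use, asks whether the same genes differ in the cells' total RNA. Of the 10 members, 4 were measured there, and none was higher or lower, against 0.111% higher and 0.133% lower of 13519 measured genes. The 4 ratios were 0.62 (-0.13 to 1.4) for Ifi205, 0.17 (-0.27 to 0.61) for Ifi204, -0.17 (-0.89 to 0.54) for Ifi203 and -0.23 (-0.81 to 0.35) for Ifi207. Their median was 0.00, against -0.01 for all measured genes. Each of these intervals covers 0, and each ends below the lower end of the same gene's pulldown interval. Ifi209, under the minimum, had -0.37 (-1.50 to 0.74), and Aim2 had 0.91 (-3.35 to 6.79). Ifi206 had 4 reads against 0, and the lower end of its interval, -0.69, lies below 0. The intervals of Ifi203, Ifi204 and Ifi207 lie within 2-fold on both sides, and that of Ifi205 reaches beyond 2-fold on its upper side.

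The difference between the kinds of library was then taken for the 4 members with at least 10 reads in each library. The log2 ratio between the states was larger in the pulldown than in whole-cell RNA by 4.27 (normal 95% counting interval 3.62 to 4.91) for Ifi207, 2.70 (2.0 to 3.40) for Ifi203, 1.93 (1.47 to 2.39) for Ifi204 and 1.64 (0.90 to 2.38) for Ifi205. The first 3 passed the 2-fold line and Ifi205 did not, against 2.69% higher and 1.69% lower of 11171 genes. These differences contain the pulldown contrast by which the family was picked.

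Pulldown and whole-cell RNA of the same state were compared per library total, and they share their libraries with the comparisons above. The AF357425-High pulldown is the library by which the family was picked, and Ifi206, Ifi208, Ifi209 and Ifi213 reached the minimum through it alone, so nothing is read from their count. In AF357425-High, 8 of 10 members were measured and 8 were higher in the pulldown, against 2.41% higher and 74.1% lower of 12773 genes. Their median log2 ratio was 4.21, with Ifi213 set at its ratio to 3 whole-cell reads (17.1-fold), against -2.15 for all measured genes. The ratio was 6.45 (5.08 to 8.33) for Ifi206, 6.11 (3.59 to 11.4) for Ifi208, 5.01 (4.52 to 5.54) for Ifi203, 4.33 (3.88 to 4.81) for Ifi205, 4.07 (3.66 to 4.51) for Ifi207, 3.39 (2.6 to 4.29) for Ifi209 and 3.15 (2.85 to 3.47) for Ifi204. Ifi213 had 60 reads against 0, and the lower end of its interval was 3.75. The background depends on the scaling: all genes split into 308 higher and 9459 lower per library total, 1065 and 4149 without the mitochondrial ribosomal RNAs in the totals, and 1579 and 3010 with TMM over all 4 libraries.

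In AF357425-Low, 3 of 4 measured members were also higher in the pulldown, against 2.58% higher and 62.4% lower of 12774 genes. The all-gene split there was 330 higher and 7965 lower, against 1508 and 3651 without the mitochondrial ribosomal RNAs and 1731 and 3365 with TMM over all 4 libraries. Ifi205 had 3.05 (2.45 to 3.70), Ifi203 2.67 (2.16 to 3.21) and Ifi204 1.58 (1.23 to 1.95), while Ifi207 had 0.16 (-0.35 to 0.69). The median of all genes was -1.75, and Ifi207 lay above it as well. Ifi209, with 17 whole-cell reads and 6 pulldown reads, had -1.86 (-3.49 to -0.45), next to that median. Ifi206, Ifi208 and Ifi213 had 7, 9 and 8 pulldown reads against 0, and the lower ends of their intervals were 0.17, 0.62 and 0.41. Aim2, under the minimum in both states, had 1.77 (-0.55 to 5.05) in AF357425-High and 3.55 (0.85 to 8.94) in AF357425-Low. Without the mitochondrial ribosomal RNAs in the totals, the median over the members was 5.66 in AF357425-High and 3.44 in AF357425-Low, and the medians of all genes were -0.70 and -0.43. The labels name different library types for whole cells and pulldown, with ribosomal RNA depletion for the pulldown alone, and the part of these steps in the ratios was not tested.

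**Figure D3:**
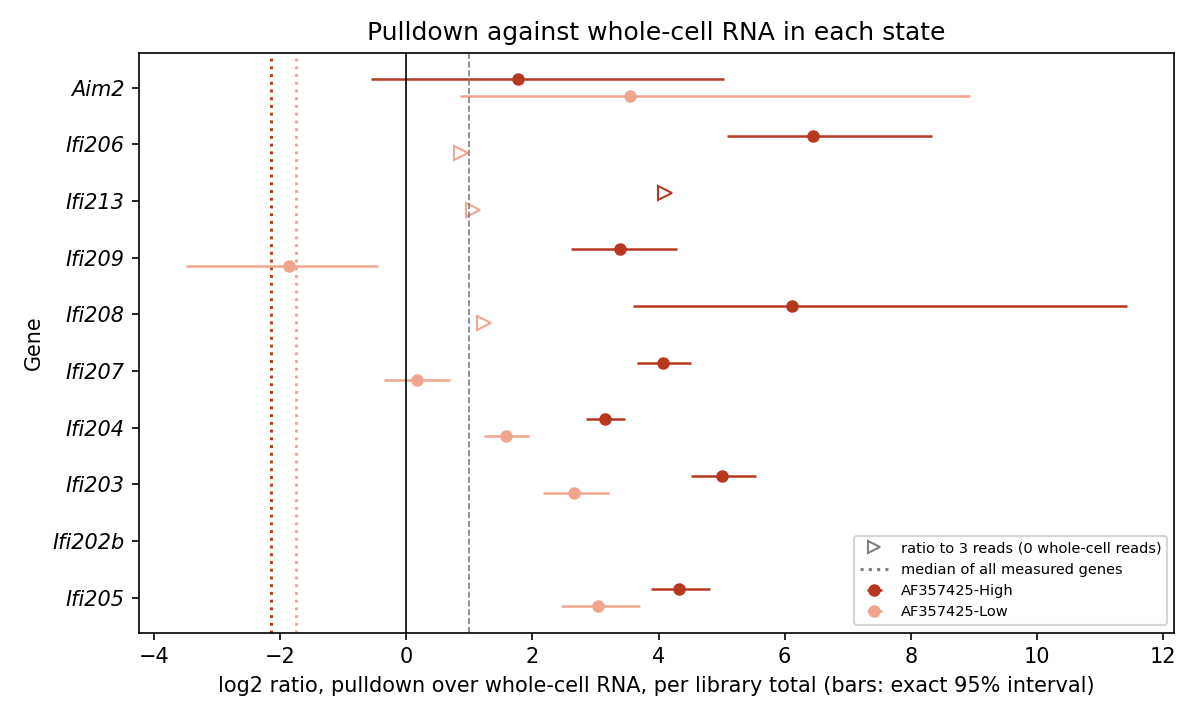
Log2 ratio of pulldown over whole-cell RNA per library total in each state, with exact 95% intervals; open triangles are ratios to the 3-read limit where whole-cell RNA had 0 reads, and dotted lines mark the median of all measured genes. Every measured member lies to the right of its state's median, and Ifi203, Ifi204 and Ifi205 lie beyond 2-fold in both states, whereas Ifi207 does so in AF357425-High only, a difference between the states of 4.27 on the TMM scale.

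The make-up of the family's reads differed between the libraries. Of the 997 family reads of the AF357425-Low pulldown, Ifi203, Ifi204 and Ifi205 gave 29.4%, 31.6% and 26.6%, and Ifi207 gave 7.92% (exact binomial 95% interval 6.32 to 9.78). In the AF357425-High pulldown Ifi207 gave 19.8% (18.7 to 20.9) of 4981 reads and Ifi206 8.23% (7.48 to 9.03), against 0.702% (0.283 to 1.44) in AF357425-Low. In whole-cell RNA Ifi207 gave 20.5% (15.6 to 26.1) and 25.5% (19.8 to 31.8), and Ifi204 led with 40.2% and 38.0%. Ifi207 was therefore a smaller part of the AF357425-Low pulldown than of any other library. These are shares of reads, not corrected for transcript length, and they compare libraries and not genes.

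Other genes of the cluster were read for comparison. Of 4 further PYHIN genes with counts, 3 were measured in the pulldown and were higher: the pseudogene Ifi203-ps by 3.97 (2.77 to 5.46; 71 against 6 reads), Mndal by 2.03 (1.83 to 2.23; 825 against 267 reads) and Ifi211 by 1.26 (1.08 to 1.43; 745 against 412 reads). With library totals in place of TMM, Ifi211 had 0.96 and did not pass the line. Ifi203-ps had 0.22 CPM in the AF357425-Low pulldown and reached the minimum through the AF357425-High pulldown alone. Ifi214 had 16 pulldown reads against 0, with a lower interval end of 2.35, and was under the minimum. In whole-cell RNA Mndal had 0.68 (0.07 to 1.3; 63 against 37 reads) and Ifi211 had -0.20 (-0.46 to 0.06; 239 against 258 reads), neither past the line. Within 500 kb of the cluster (GRCm38.p6 chromosome 1, 173349547 to 174031755), 39 annotated genes that are no PYHIN genes had counts, 12 of them with any read. Among these, the actin nucleator gene Fmn2 had 82 and 77 whole-cell reads, a ratio of 0.00 (-0.47 to 0.47), and 2 and 6 pulldown reads, which is under the minimum there. Inside the cluster the pseudogene Gm7871, picked after its values were seen, had 1 pulldown read in AF357425-High against 21 in AF357425-Low, a ratio of -3.99 (-9.36 to -1.36). The higher level in the pulldown was thus spread over the PYHIN genes from Ifi206 to Ifi205, with Ifi202b at 0 reads between them.

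**Figure D4:**
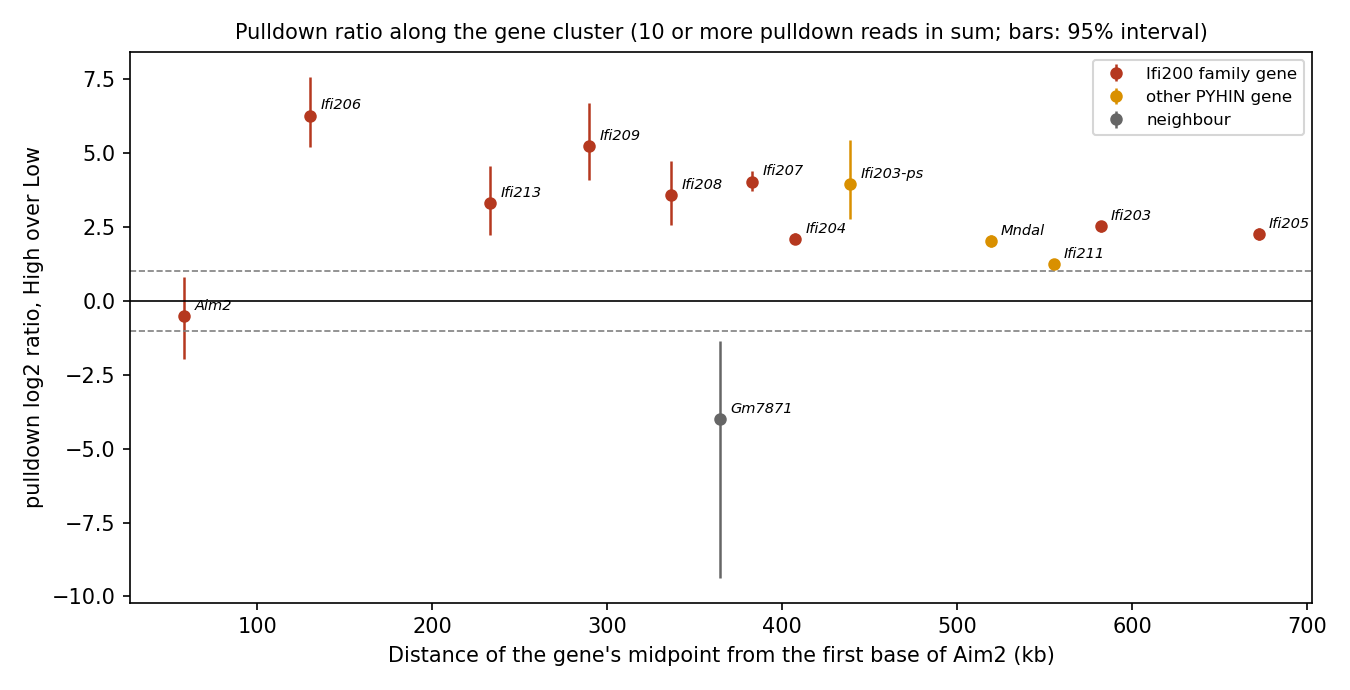
Pulldown log2 ratio of AF357425-High over AF357425-Low against the distance of each gene's midpoint from the first base of Aim2 in kb, for genes of the cluster with at least 10 pulldown reads in sum and a read in both libraries; bars are 95% intervals. The 8 family genes and the other PYHIN genes drawn lie above the 2-fold line, and Aim2 and Gm7871 lie below 0.

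Genes of the pathways around the family were taken from lists. These lists were chosen with earlier results of these data known, so their counts are a description. Of 21 measured genes of DNA sensing, 4 were higher and 1 lower in the AF357425-High pulldown, with a list median of -0.10, against 3.43% higher and 2.9% lower of all measured genes. Higher were the Z-nucleic acid sensor gene Zbp1 (3.89, 3.62 to 4.17), the transcription factor Irf7 (3.30, 2.98 to 3.63), the cyclic GMP-AMP synthase gene Cgas (1.56, 1.27 to 1.85) and the nucleotide hydrolase gene Samhd1 (1.34, 1.23 to 1.46). Cgas and Samhd1 had 1.26 and 1.05 with library totals and did not pass there. Nlrx1, which encodes a mitochondrial regulator of antiviral signalling, was lower (-2.03, -3.17 to -1.04). The STING gene Tmem173, on which signalling by IFI16 relatives relies, had -0.74 (-1.01 to -0.48), the kinase gene Tbk1 0.55 (0.37 to 0.73) and Irf3 -0.77 (-1.39 to -0.18). The remaining 16 measured genes passed the line in neither direction.

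Of 5 measured inflammasome genes, none passed the line in either direction. The caspase gene Casp4 had 0.39 (0.04 to 0.74), the pore-forming gasdermin genes Gsdmd and Gsdme had 0.52 (0.19 to 0.84) and -0.73 (-1.05 to -0.42). Pycard, the adaptor that links Aim2 to caspase-1, had 1 and 7 whole-cell reads and 18 and 9 pulldown reads, a pulldown ratio of 1.4 (0.17 to 2.74). Casp1 had 24 and 18 whole-cell reads and 12 and 5 pulldown reads, a ratio of 1.66 (0.06 to 3.52). Both were under the minimum with intervals above 0 that reach below 2-fold, and Il1b, which encodes its substrate, had 0 reads in all 4 libraries. Of the 15 listed inflammasome genes, 10 were under the minimum in the pulldown.

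Of 17 measured genes of interferon signalling, 5 were higher in the AF357425-High pulldown and none lower, with a list median of 0.31. Among them were Isg15 (2.90, 2.77 to 3.04), a ubiquitin-like modifier, Usp18 (2.17, 1.92 to 2.43), which removes Isg15 and limits the receptor, the transcription factor Stat2 (1.38, 1.26 to 1.49) and the feedback inhibitor Socs3 (1.26, 1.02 to 1.51). Stat2 had 1.08 and Socs3 0.97 with library totals and did not pass there. The receptor subunit Ifnar1 had 0.00 (-0.12 to 0.13), the kinase Jak1 -0.02 (-0.09 to 0.04) and Irf9, the DNA-binding partner of Stat2, 0.34 (0.15 to 0.53). Among the ligands, Ifnb1 had 10 pulldown reads against 2 (AF357425-High first), and Ifna4 had 30 against 0, with a lower interval end of 3.33 on the log2 scale. Both had 0 reads in whole-cell RNA of either state, and Ifng had 0 reads in all 4 libraries.

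Of 32 other interferon-stimulated genes, all measured in the pulldown, 30 were higher and none lower. The shares of all measured genes were 3.43% and 2.9%. The median of the 32 was 2.98. The highest were Sp110 (4.98, 4.24 to 5.83), Mx1 (4.51, 4.03 to 5.02), Cmpk2 (4.44, 4.05 to 4.87), Oas2 (4.23, 3.31 to 5.32), Oas3 (4.18, 3.44 to 5.01) and Oasl1 (4.15, 3.22 to 5.24). Ifitm3 (0.88, 0.81 to 0.95) and Ifi27 (0.13, -0.10 to 0.35) did not pass the line. In the AF357425-Low pulldown Sp110, Oas1a, Oas2, Oas3 and Oasl1 had 0.54, 0.25, 0.36, 0.57 and 0.36 CPM. These genes reached the minimum through the AF357425-High pulldown alone, so nothing is read from their part of the count. The Ifi206 interval lay above the point value of every gene of this list, and its lower end lay within the intervals of Sp110, Oas2, Oasl1 and Oas1a. In whole-cell RNA none of the 23 measured genes of this list, the 18 of interferon signalling, the 21 of DNA sensing or the 6 of the inflammasome passed the line. Their medians were 0.21, 0.09, -0.09 and -0.23. Below the line, 16 of the 23 lay above 0, against 48.2% of all measured genes. Of the 21 genes of DNA sensing, 10 lay above 0. Among them Zbp1 had 0.76 (0.30 to 1.23) and Cgas 0.55 (0.24 to 0.87), while Irf3 had -0.19 (-0.35 to -0.02).

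**Figure D5:**
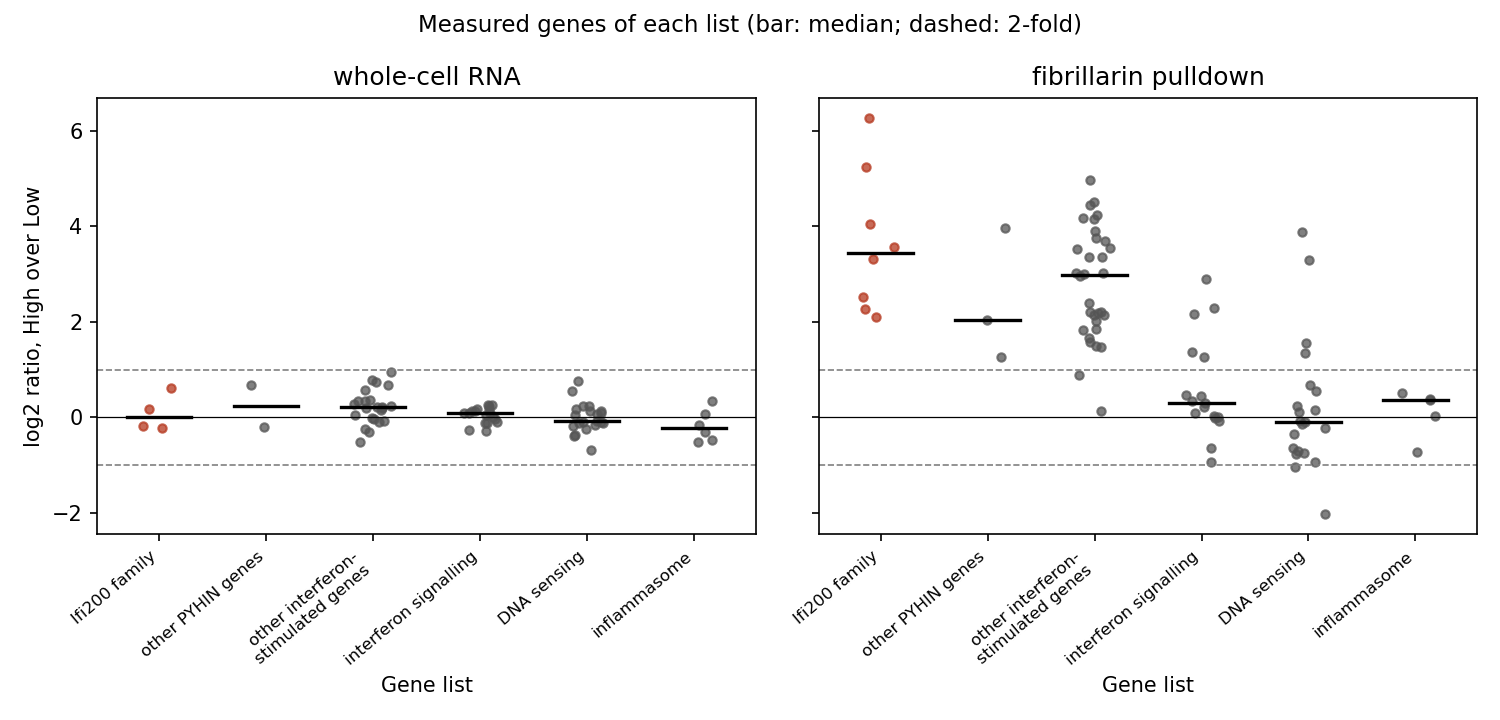
Log2 ratio of AF357425-High over AF357425-Low for the measured genes of each list, whole cells at left and pulldown at right; bars are list medians and dashed lines mark 2-fold. In whole-cell RNA all points lie within 2-fold. In the pulldown the medians of the Ifi200 family (3.44) and the other interferon-stimulated genes (2.98) lie above those of the inflammasome (0.36) and DNA sensing (-0.10) lists. The family was chosen on the pulldown contrast, so nothing is read from its place. Its genes Ifi206, Ifi208, Ifi209 and Ifi213 reached the minimum through the AF357425-High pulldown alone. So did Ifi203-ps of the other PYHIN genes and Sp110, Oas1a, Oas2, Oas3 and Oasl1 of the other interferon-stimulated genes. The lists were also chosen with earlier results of these data known.

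The genes whose pattern over the 4 libraries was most like that of the family were found by distance. The mean profile of the 6 members with at least 1 CPM over all 4 libraries (Ifi203, Ifi204, Ifi205, Ifi206, Ifi207 and Ifi209), as log2(CPM + 1) minus its mean, was compared with 12789 other genes. The nearest were Gbp6 (Euclidean distance 0.139), Tnfsf10 (0.245), Gbp9 (0.346), Slfn5 (0.394) and Tgtp1 (0.439), whereas the 6 members themselves lay at 0.615 to 1.36 from their mean. Gbp6, a guanylate-binding protein gene, had 5 and 4 whole-cell reads and 331 and 29 pulldown reads, and Tnfsf10, which encodes the death ligand TRAIL, had 1 and 1 whole-cell reads and 231 and 30 pulldown reads. In all 5 the AF357425-High pulldown was the highest library, as it is in the profile they were matched to, so nothing is read from that.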

How the data were processed

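Whole-cell and fibrillarin pulldown libraries were made in AF357425-High and AF357425-Low fibroblasts, 1 library per group, and grouped by their titles. The authors deposited raw counts of fragments per gene. Per the submitters' processing notes these come from cutadapt 2.4, STAR 2.6.0c, HTSeq 0.9.1 and StringTie 1.3.4 on GRCm38; the sources used here give neither gene annotation nor strand setting. Summary lines of HTSeq were left out of gene totals (50.0% to 56.2% of all fragments were assigned to genes). From the counts, log2 ratios were computed with TMM factors (edgeR 4.0.16, R 4.3.3) between states and with library totals between kinds of library, with exact Clopper-Pearson or, for the change, normal 95% intervals, and checked on simulated counts. No test was run. Scaling (also DESeq2 1.42.0 size factors), the filter and the line were varied. Symbols (55450 IDs), positions and promoters come from the reference tables (RefSeq GRCm38.p6). Every member is named; from each list up to 6 genes past the line and up to 3 others. The members and lists were chosen with earlier results of these data known. Some items are not reported here.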

Additional observations from a re-analysis of the deposited data

Results flagged for a closer look

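Ifi203 and Ifi207 pointed in opposite directions in the kinds of library. For AF357425-High over AF357425-Low, Ifi203 had a log2 ratio of -0.17 (95% interval -0.89 to 0.54) in whole-cell RNA and 2.53 (2.34 to 2.72) in the pulldown, a difference of 2.70. Ifi207 had -0.23 (-0.81 to 0.35) and 4.04 (3.71 to 4.39), a difference of 4.27. The whole-cell intervals cover 0, each group has 1 library, and the difference between the kinds of library was not tested against replicates.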

How the results depend on the processing

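No replicate could be left out, and no paired analysis was possible because each group has 1 library. The pulldown ratio between the states stayed above 2-fold for the 8 members under every scaling run (medians 3.14 with library totals to 3.43 with median-of-ratios factors), although library totals moved the median of all genes from -0.01 to -0.31 and the split of all calls from 368 higher and 311 lower to 238 and 608. With a minimum mean of 5 CPM, 5 members were measured and 5 were higher between the states in the pulldown, against 2.73% of 6887 genes. For pulldown over whole-cell RNA in AF357425-High it was again 5 of 5, against 1.77% of 9471 genes. Ifi206 and Ifi207 had 0.25 and 2.84 CPM in the AF357425-Low pulldown and reached 5 CPM through the AF357425-High pulldown. The family was chosen on that library, so nothing is read from these counts. No member was measured between the states in whole-cell RNA at 5 CPM. For pulldown over whole-cell RNA, the median over members was 5.66 and 3.44 (AF357425-High and AF357425-Low) without the mitochondrial ribosomal RNAs and 6.01 and 3.55 with TMM over all 4 libraries. With that TMM, Ifi207 in AF357425-Low had 1.59 and passed the line. In AF357425-Low the median was 2.67 over 3 members at 5 CPM and 1.23 over 9 without a filter. Direction was followed for the members and, between the states alone, for a set of other genes named above. None of these that was past the line changed direction under any setting run. Of genes not past it, Ifnar1 (0.00) and Ifi27 (0.13) had -0.29 and -0.17 in the pulldown with library totals, and Ifi27 in whole-cell RNA went from -0.04 to 0.02. The whole-cell median over members ranged from 0.00 to 0.17. Precision is limited by the whole-cell reads of the family, 244 and 216.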
